A study of Mus musculus with 2 samples.

Results

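The 10 genes of blood and lymph endothelium described here in the newborn mouse stomach are Pecam1, Cdh5, Emcn, Egfl7, Plvap, Angpt2, Tek, Tie1, Lyve1 and Prox1. The genes were chosen by name, and gene identifiers without their version were matched to GENCODE symbols. All 10 were found among the 43346 genes with an Ensembl identifier in each pup's gene table. The study sequenced total RNA from whole stomachs of 2 pups of the mouse strain B6NCrl on the day of birth (age 0 days). Both pups came from 1 pregnant female, sex was not collected, and the labels name no treatment, mutation or second group. Each library was made from 10 ng of RNA longer than 200 nucleotides with added spike-in RNA, and the expected counts of all features came to 51524479 for pup 1 and 49983574 for pup 2. The labels name the pups separately but give both 1 shared donor entry. With 1 group of 2 pups no comparison between conditions was possible and no p-value was computed. A difference between the pups compares 2 libraries and has no replicate check.

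Endothelium is the single layer of cells that lines blood and lymph vessels. VE-cadherin and PECAM-1 hold its cells together, VEGF and angiopoietin signals direct its growth and quiescence, and the transcription factor PROX1 gives lymphatic vessels their identity. Capillaries of the gastric mucosa are fenestrated, and their pores are spanned by diaphragms made of PLVAP. None of the markers is wholly private to endothelium: PECAM-1 is also found on platelets and leukocytes, LYVE-1 on some tissue macrophages, and PROX1 in other tissues.

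Levels are given as TPM, a share of all transcripts that corrects for transcript length, with the credibility interval that the authors deposited for each gene in each pup. Of the 10 genes, 9 were detected (TPM of at least 1 in each pup), as were 61.2% of protein-coding genes. Plvap and Egfl7 stood highest, Pecam1 and Emcn followed, and Lyve1, Tie1 and Cdh5 lay close together. Tek, Angpt2 and Prox1 formed the low end, and the mean TPM of Plvap was 124-fold that of Prox1. All 10 genes held the same rank in both pups. Neighbours in that order had intervals apart in both pups except Plvap and Egfl7, Lyve1 and Tie1, and Tie1 and Cdh5. The median TPM of the 9 detected members was 9.28 ± 1.82 (SD, n = 2), against 13 ± 0.251 (SD, n = 2) for all detected protein-coding genes. The middle gene of the 9 was Lyve1 in both pups, so that SD is the Lyve1 spread and not that of the list. Over all 10 members, Prox1 included, the median TPM was 8.62 ± 0.898 (SD, n = 2). In whole tissue, the number of endothelial cells and the RNA per endothelial cell cannot be told apart from these levels.

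**Figure D1:**
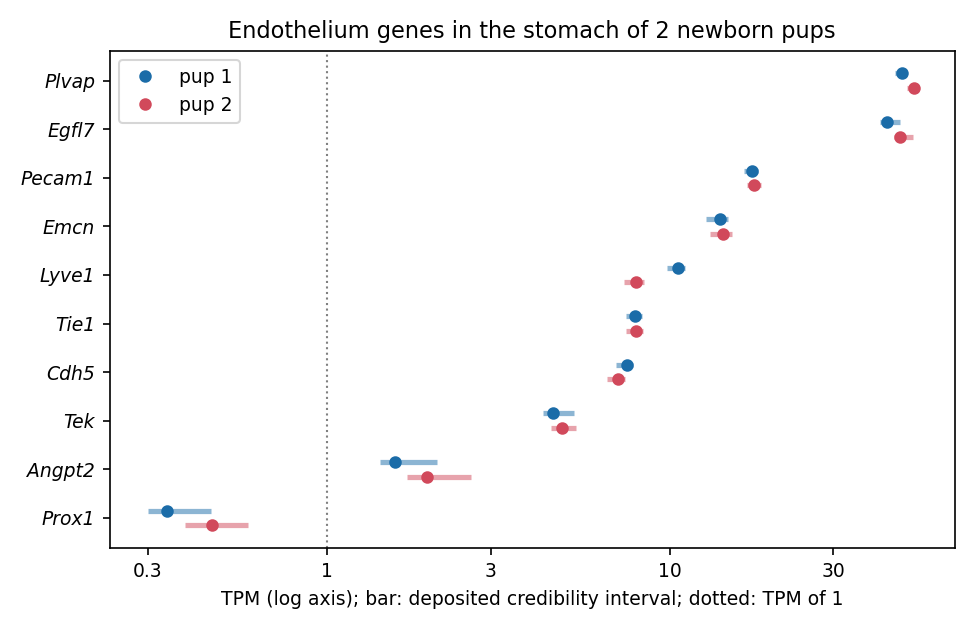
TPM of the 10 endothelium genes in each pup, on a log axis, with the deposited credibility interval as a bar and a TPM of 1 as a dotted line. Plvap stood at 47.7 and 51.6 and Prox1 at 0.34 and 0.46, and Lyve1 is a gene whose bars are apart between the pups.

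Shown first are 3 exons at which transcripts of Pecam1, Tek and Emcn differ, and the microRNA that lies within Egfl7. Exon sequences are from GENCODE M21 transcripts in the sense direction and the microRNA is from RefSeq on GRCm38.p6. Exons are in lower case throughout. In the microRNA, capitals mark the seed, bases 2 to 8.
Pecam1 exon 14, chr11:106671742-106671798, minus strand: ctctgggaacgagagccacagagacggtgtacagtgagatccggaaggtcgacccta
Tek exon 4, chr4:94799127-94799279, plus strand: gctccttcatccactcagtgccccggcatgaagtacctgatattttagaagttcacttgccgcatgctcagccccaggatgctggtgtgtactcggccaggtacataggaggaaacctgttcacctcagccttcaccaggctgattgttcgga
Emcn exon 5, chr3:137403984-137404022, plus strand: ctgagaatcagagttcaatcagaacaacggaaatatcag
miR-126a-3p, chr2:26591402-26591423, plus strand: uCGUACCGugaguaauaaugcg

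Among the junction and surface proteins, Pecam1, an adhesion receptor at endothelial borders (chromosome 11, 106654217 to 106750628, minus strand), had a TPM of 17.4 (pup 1) and 17.6 (pup 2). The mean was 17.5 ± 0.141 (SD, n = 2), from 2223 and 2174 expected counts. Cdh5, which encodes VE-cadherin, the adherens junction cadherin of endothelium (chromosome 8, 104101625 to 104144511, plus strand), stood at 7.5 and 7.06. Its mean TPM was 7.28 ± 0.311 (SD, n = 2), so Cdh5 lay at 0.432 and 0.402 of the Pecam1 TPM in pups 1 and 2. Emcn, a sialomucin of venous and capillary endothelium (chromosome 3, 137341067 to 137432185, plus strand), stood at 14.0 and 14.3 with a mean TPM of 14.2 ± 0.219 (SD, n = 2). For each of these 3 genes the deposited intervals of the pups overlapped.

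Plvap, which encodes the protein of fenestral diaphragms (chromosome 8, 71497765 to 71511752, minus strand), had the highest TPM of the 10 genes, 47.7 (pup 1) and 51.6 (pup 2). The mean was 49.6 ± 2.77 (SD, n = 2), above 88.4% of protein-coding genes, and the Plvap TPM was 2.75 and 2.94 times that of Pecam1. Egfl7, a secreted matrix protein of endothelium (chromosome 2, 26580014 to 26593120, plus strand), stood at 43.0 and 46.9, with a mean TPM of 45.0 ± 2.81 (SD, n = 2). Egfl7 carries the microRNA miR-126a, known for its enrichment in endothelium, and the 73-base hairpin at chr2:26591357-26591429 shared 0 bases with the exons of the main Egfl7 transcript. The hairpin's own entry was listed at 0 in both pups. A 73-base RNA is shorter than the 200 nucleotides above which RNA was kept, so the level of miR-126a was not measured here.

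In the angiopoietin-Tie system, angiopoietin-1 activates the receptor TEK (also named TIE2), angiopoietin-2 acts as its antagonist or agonist depending on context, and TIE1 is a co-receptor of TEK. Angpt2 (chromosome 8, 18690263 to 18741562, minus strand) had 1.58 TPM in pup 1 against 1.95 in pup 2, with a mean of 1.77 ± 0.262 (SD, n = 2) from 226 and 258 expected counts. Tek (chromosome 4, 94739289 to 94874976, plus strand) stood at 4.56 and 4.84, with a mean TPM of 4.70 ± 0.198 (SD, n = 2). Tie1 (chromosome 4, 118471191 to 118490061, minus strand) stood at 7.94 and 7.98, with a mean TPM of 7.96 ± 0.0283 (SD, n = 2). The co-receptor thus exceeded the receptor in both pups, by 1.74 and 1.65 times on the TPM scale, with intervals apart. Angpt1 stood at 1.76 and 2.01, close to Angpt2 at a TPM ratio of 1.11 and 1.03, with overlapping intervals in each pup. The phosphatase gene Ptprb, whose product VE-PTP acts on TEK, stood at 2.10 and 1.85. Svep1, a matrix protein known to bind TIE1, stood at 2.23 and 2.03, and the ligand gene Angpt4 at 0.37 and 0.38. Foxo1, a transcription factor restrained by TEK signalling, stood at 2.94 and 3.42. Of these 5 partners 4 were detected, with a median log2 ratio of 0.02. With intervals apart, 1 (Foxo1) was higher and 1 (Ptprb) lower in pup 2. Of the 13951 genes with a mean of at least 100 expected counts, 12.9% were higher and 8.33% lower with intervals apart. None of the 5 differed by 1.5-fold.

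All 10 genes of the VEGF list were detected, with a median log2 ratio of 0.01, and none had intervals apart between the pups. The ligand Vegfb had the highest TPM, 22.5 and 24.0, and the co-receptors Nrp1 (10.9 and 11.1) and Nrp2 (8.66 in both pups) followed. Kdr, the main signalling receptor of blood endothelium, stood at 5.55 and 5.21. In both pups its intervals lay below those of Cdh5 and overlapped those of Tek. Flt4, the receptor of lymphatic endothelium, stood at 1.25 and 1.2. Vegfa stood at 2.12 and 1.88, the lowest of the 5 VEGF ligands listed, but these estimates lay below the deposited Vegfa interval, which in pup 1 ran from 2.18 to 3.02. Angpt1, Angpt4, Kdr, Flt4 and Vegfa were chosen for naming after their values were seen.

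**Figure D2:**
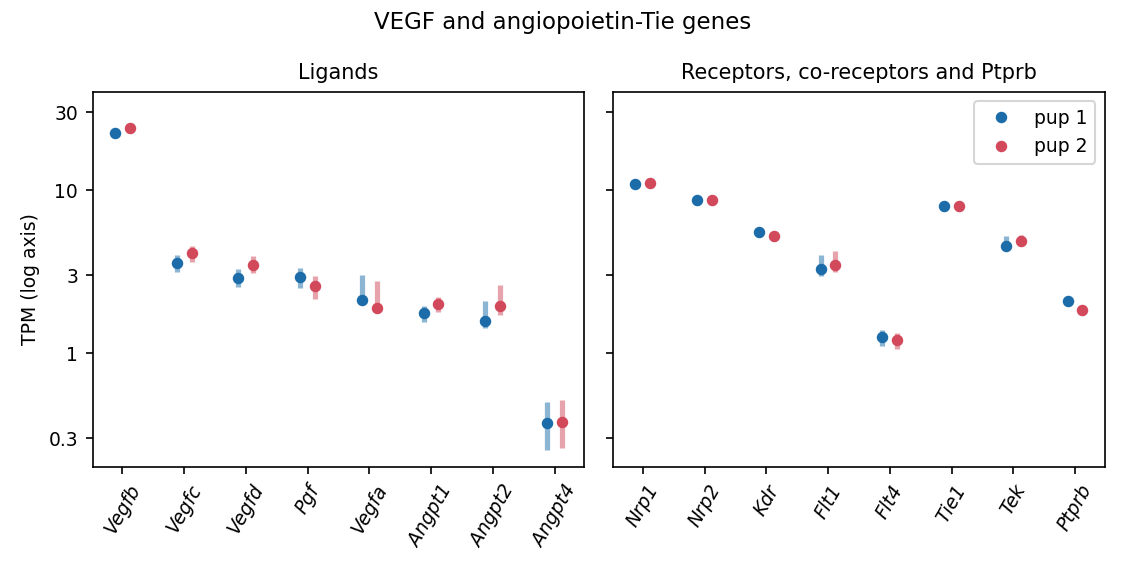
TPM of VEGF and angiopoietin ligands (left) and of their receptors, co-receptors and the phosphatase gene Ptprb (right) in each pup, on a log axis, with deposited intervals as bars. Vegfb is the highest ligand, at 22.5 and 24.0, and Tie1 lies above Tek in both pups.

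Of the lymphatic markers, Lyve1, the hyaluronan receptor LYVE-1 (chromosome 7, 110850607 to 110863239, minus strand), had 10.6 TPM in pup 1 against 7.99 in pup 2, with no overlap of the intervals. The mean was 9.28 ± 1.82 (SD, n = 2), from 1096 and 796 expected counts. Prox1 (chromosome 1, 190118035 to 190170714, minus strand) stood at 0.34 and 0.46, with a mean TPM of 0.400 ± 0.0849 (SD, n = 2). Prox1 was the 1 member below a TPM of 1, yet it was supported by 111 and 126 expected counts, far above the floor of 3 counts. The Lyve1 TPM was 31.1 and 17.4 times that of Prox1 in pups 1 and 2, and 0.609 and 0.455 of that of Pecam1.

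The pups were then set against each other with a rule on quantification error: deposited intervals apart, a TPM fold of at least 1.5 and a mean of at least 100 expected counts. None of the 10 members met it, against 1.63% of the 13951 genes tested (1.08% higher and 0.552% lower in pup 2). With no minimum fold, 2 of the 10 had intervals apart, against 21.2% of those genes. Plvap was the 1 higher in pup 2 (12.9% of genes) and Lyve1 the 1 lower (8.33% of genes). With the median ratio of all detected genes set to 0, the Plvap intervals overlapped and Lyve1 was the 1 left. Of the 10 genes, 7 lay within 1.1-fold between the pups, as did 61.2% of detected genes. The median log2 ratio of pup 2 over pup 1, on the log2(TPM + 1) scale, was 0.03 over the 9 detected members and 0.03 over all detected genes. With Prox1 included the members' median was 0.05. By TPM 8 members were higher and 2 lower in pup 2, but by TMM-scaled CPM (counts relative to the library total) and by DESeq2-scaled counts the split was 5 and 5. The sign depended on the scaling for Pecam1, Emcn and Tie1.

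For Plvap the deposited interval ran from 45.5 to 48.5 in pup 1 and from 49.2 to 52.4 in pup 2. The fold was 1.08, and the ratio of Plvap CPM was 1.07 with a 95% exact interval of 1.02 to 1.12 that covers counting error only. For Egfl7 the same ratio was 1.12 (95% exact interval 1.04 to 1.2), while its deposited TPM intervals overlapped. For Lyve1 the deposited interval ran from 9.82 to 11.1 in pup 1 and from 7.33 to 8.42 in pup 2. The Lyve1 log2 ratio was -0.36, and 2.15% of detected genes had a lower one. Its CPM ratio was 0.749 (95% exact interval 0.682 to 0.821), and its log2 ratio ranged from -0.44 to -0.36 over the scalings and pseudocounts tried. Angpt2 and Prox1, with the fewest counts, had CPM ratios of 1.18 (95% exact interval 0.981 to 1.41) and 1.17 (95% exact interval 0.899 to 1.52), so differences of these sizes were not detectable at this depth.

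**Figure D3:**
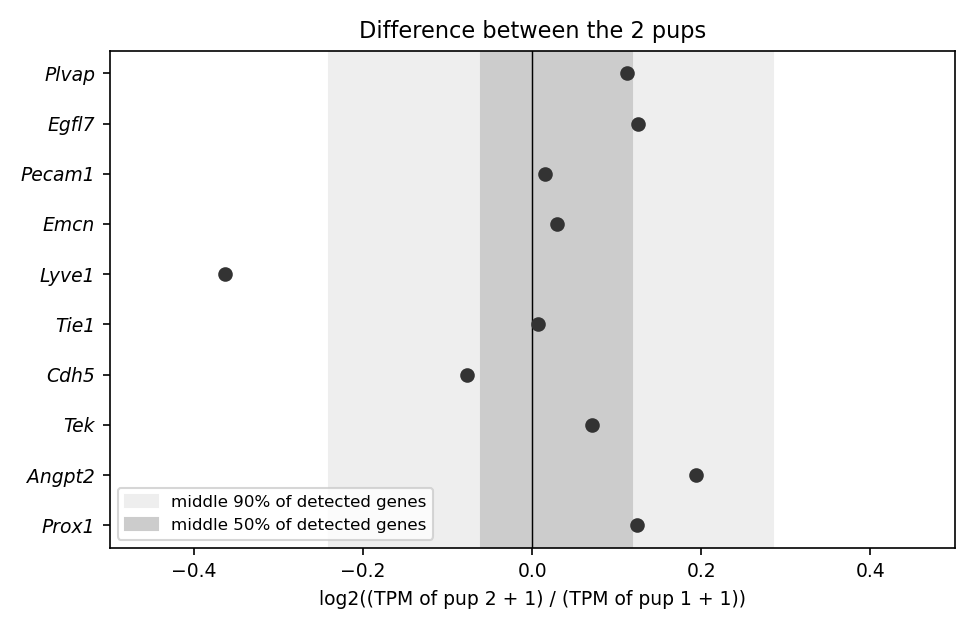
Log2 ratio of pup 2 over pup 1 on the log2(TPM + 1) scale for the 10 endothelium genes, beside the spread of all detected genes. Lyve1 at -0.36 lies below the middle 90% of detected genes, which ran from -0.24 to 0.28, and the other 9 genes lie within it.

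The lymphatic and macrophage lists were read beside Lyve1. The summed TPM of the 10 lymphatic genes, which do not include Lyve1 or Prox1, was 100 in pup 1 against 91.5 in pup 2. Their median log2 ratio was -0.02, and 1 of the 8 detected genes had intervals apart, against 21.2% of all genes tested. That gene was Pdpn, the podoplanin of lymphatic endothelium and also of mesothelium, at 30.9 and 23.6. Ccl21a, a chemokine made by lymphatic endothelium, stood at 27.1 and 26.7, and Stab1, a scavenger receptor shared by lymphatic endothelium and macrophages, at 20.9 and 20.7. By TPM 7 of the 10 lymphatic genes were lower and 3 higher in pup 2, and none was listed at 0 in both pups. Itga9, an integrin gene of lymphatic valves named after its values were seen, stood at 4.5 and 3.59. Its CPM ratio was 0.789 (95% exact interval 0.726 to 0.858), with overlapping deposited intervals. Both Itga9 estimates lay below their own deposited intervals, which began at 4.55 (pup 1) and 3.67 (pup 2). Reln, also named after its values were seen, went the other way, at 1.17 and 1.46. The Reln CPM ratio was 1.30 (95% exact interval 1.06 to 1.59), again with overlapping deposited intervals. The summed TPM of the 10 macrophage genes was 164 and 162, and their median log2 ratio was -0.01. The complement genes C1qb (69.2 and 68.3) and C1qa (42.7 and 45.5) and the lysosomal gene Cd68 (15.6 and 14.7) had overlapping intervals. By TPM 5 of the 10 macrophage genes were lower and 5 higher in pup 2. Folr2 (1.78 and 1.39), Cd163 (1.06 and 0.91) and Mrc1 (8.47 and 8.49), named after their values were seen, had overlapping intervals. The Mrc1 CPM ratio was 0.872 (95% exact interval 0.809 to 0.940). F13a1, a coagulation factor gene also expressed by macrophages, was the 1 macrophage gene with intervals apart, at 9.11 and 6.45, and was chosen for naming after its values were seen. The part of either cell type in the Lyve1 difference was not tested.

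**Figure D4:**
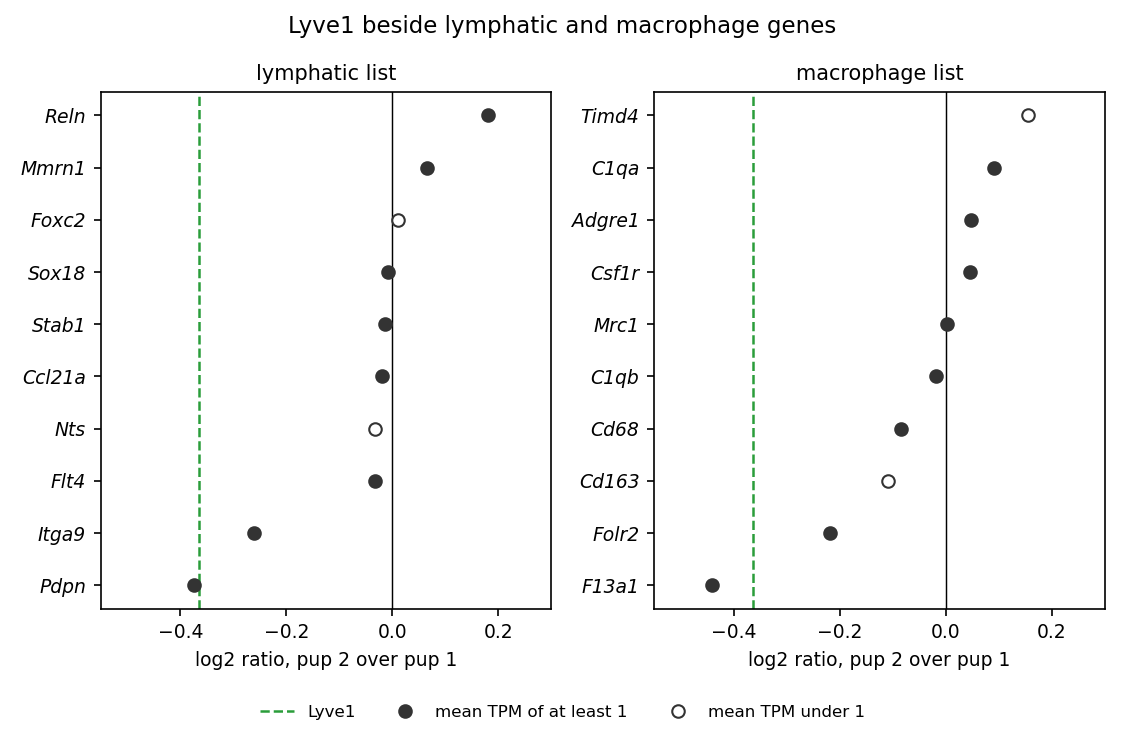
Log2 ratio of pup 2 over pup 1 on the log2(TPM + 1) scale for the 10 lymphatic genes (left) and 10 macrophage genes (right), with open points for a mean TPM under 1 and the Lyve1 ratio of -0.36 as a dashed line. Pdpn and F13a1 lie beside or below the line, and most other genes of both lists lie nearer to 0.

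All 12 other general endothelium genes were detected, from a mean TPM of 3.31 to 44.9, and their summed TPM was 174 and 177. Cd34, a sialomucin of endothelium and of progenitors, stood at 42.8 and 47.0 with intervals apart. The endothelial surface protein genes Ecscr (28.9 and 26.9) and Esam (26.1 and 24.2) had overlapping intervals. The median log2 ratio of the list was 0.02. Of these 12 genes, 2 were higher and 0 lower in pup 2 with intervals apart, against 12.9% and 8.33% of all genes tested. They were Cd34 and the tight junction gene Cldn5 (17.0 and 20.3), which was named after its values were seen. Of 10 endothelial transcription factor genes 9 were detected, with a median log2 ratio of -0.01, led by Sox18 (12.1 and 12), Klf2 (8.13 and 9.53) and Ets1 (8.47 and 7.52, intervals apart). Erg, an ETS factor of endothelium, met the 1.5-fold rule and was lower in pup 2, with a TPM of 1.85 and 1.08. By that rule 0.552% of all genes tested were lower in pup 2.

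Of 8 arterial genes 6 were detected, with a median log2 ratio of 0.05, and none had intervals apart. The Notch ligand gene Jag1 stood at 7.06 and 7.55, the connexin gene Gja4 at 6.28 and 6.85, and Efnb2 at 5.88 and 6.58. In the venous and capillary list 8 of 10 genes were detected, with a median log2 ratio of -0.13 over the detected genes. The median TPM over all 10 genes of the list, detected or not, was 16.7 and 13.4. Its highest genes were Rgcc (39.0 and 34.3, intervals apart), Nr2f2, a transcription factor of venous identity (29.3 and 28.8), and Aplnr, the apelin receptor gene (23.9 and 21.5). Gpihbp1, which carries lipoprotein lipase to the capillary lumen, met the 1.5-fold rule and was lower in pup 2, at 22.9 and 14.9. By that rule 0.552% of all genes tested were lower in pup 2. Of the 7 genes of this list with enough counts, 3 were lower and 1 was higher in pup 2 with intervals apart. Over all genes tested, 8.33% were lower and 12.9% higher with intervals apart. The 10 genes of the mural cell list, chosen for the pericytes and smooth muscle that wrap vessels, were all detected, with a median log2 ratio of 0.02. Which cells of the whole stomach expressed them was not tested. Ndufa4l2 (56.8 and 47.8, intervals apart), Kcnj8 (43.1 and 43.3) and Mcam (38.1 and 37.5) were the highest. Of the 9 mural genes with enough counts, 1 was higher in pup 2 with intervals apart (Abcc9, 3.76 and 4.46) and 1 lower (Ndufa4l2). Abcc9 was named after its values were seen. None of the list met the 1.5-fold rule. Higd1b, a pericyte gene named after its values were seen, was lower in pup 2 by more than that fold with intervals apart (5.06 and 2.73), but its 117 and 54 expected counts were under the count minimum on average.

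Genes of other cells that could carry member transcripts were also read. Of the platelet and leukocyte list, Pf4, a chemokine of platelets that macrophages can also express, stood at 171 and 125 with intervals apart, Laptm5 at 28.6 and 25.6, and Cd52 at 17.4 and 15.4. The list had 8 of 10 genes detected and a median log2 ratio of -0.13. Ppbp, another platelet chemokine, met the 1.5-fold rule and was higher in pup 2, at 3.82 and 14.5. All 6 liver genes with enough counts met the 1.5-fold rule and were higher in pup 2, against 1.08% of all genes tested. They were Afp (20.8 and 47.2), Ahsg (24.7 and 43.6), Alb (20.2 and 34), Apoh (2.86 and 5.97), Serpina1a (2.98 and 5.72) and Fgb (2.38 and 5.21). The liver sinusoid genes Stab2 (0.15 and 0.27), Clec4g (0.08 and 0.17), Clec4f (0.10 and 0.13) and Oit3 (0.25 and 0.24) were all below a TPM of 1, and were named after their values were seen. The median log2 ratio of the detected liver genes was 0.82. Genes of enteric neurons and endocrine cells, led by Uchl1 (51.5 and 49.96), Chga (24.8 and 28.2, intervals apart) and Tubb3 (20.9 and 21.2), had 7 of 10 detected, a median log2 ratio of 0.02 and none past the 1.5-fold rule. The part of these cells in the members' levels was not tested.

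At transcript level, Plvap, Lyve1 and Cdh5 each had 1 listed transcript. The other 7 members had 2 or more, and in 7 of 7 the same transcript held the largest share in both pups, as in 92% of 9490 genes. The main transcript held 97.7 ± 3.28% of Angpt2, 95.8 ± 3.17% of Tie1, 89.8 ± 14.5% of Prox1, 78.9 ± 2.38% of Emcn, 60.1 ± 6.88% of Tek, 52.9 ± 1.99% of Pecam1 and 37.6 ± 1.99% of Egfl7 (SD, n = 2). For Prox1 the shares were 100% (pup 1) and 79.5% (pup 2), from 111 and 126 counts. By the deposited posterior means, the main transcript held less of Angpt2 (89.05 and 84.87%) and of Prox1 (86.66 and 74.24%) in pups 1 and 2. No transcript of these 7 genes had intervals apart between the pups.

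Pecam1 transcripts split at exon 14, the 57-base exon shown above, which codes for part of the cytoplasmic tail and keeps the reading frame. Transcripts with it held 44.8% of the TPM of coding Pecam1 transcripts that span the site in pup 1 and 47.5% in pup 2, or 46.2 ± 1.86% (SD, n = 2). They summed to a TPM of 7.66 and 8.17. The 1 transcript without the exon stood at 9.42 (deposited interval 7.29 to 10.5) and 9.04 (6.74 to 10.5). Those intervals reach below the TPM of the forms with the exon, so which form held the larger part is not settled. A 23-base exon that shifts the frame was in 16.3 and 15%, and a 303-base exon of the extracellular part in 86.8 and 93.0%. Tek exon 4, of 153 bases and in frame, was in transcripts holding 59.2% of spanning Tek TPM in pup 1 and 75.2% in pup 2. The transcript that lacks it stood at a TPM of 1.86 (deposited interval 1.17 to 2.62) and 1.2 (0.542 to 1.73), so the pups' values overlapped. A 3-base segment of Tek exon 14 was in 96.1 and 89.9%. Emcn exon 5, of 39 bases and in frame, was the minor form, with 21.7 and 18.2%. For Egfl7 a 39-base segment of exon 9 was in 90.2 and 87.2% and the 65-base exon 8 in 81.4 and 83.7%. These shares come from the authors' assignment of reads among overlapping transcripts, not from counts of reads across splice junctions.

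**Figure D5:**
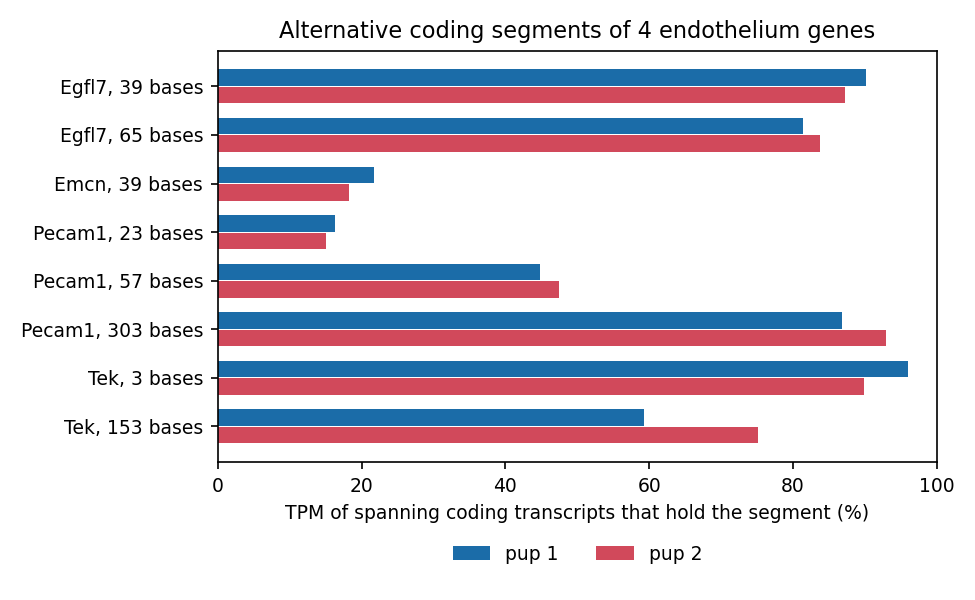
Percent of the TPM of each gene's coding transcripts spanning a site that contains the coding segment, for Pecam1, Tek, Emcn and Egfl7 in each pup. The 57-base exon of Pecam1 lies at 44.8 and 47.5%, and the 153-base exon of Tek has a wide gap between the pups, at 59.2 and 75.2%.

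Egfl7 had 19 listed transcripts and RefSeq gives it 3 start sites. Transcripts with an annotated start within 60 bases of position 26583865 held 44.0% of Egfl7 TPM in pup 1 and 48.8% in pup 2. Those near position 26586636 held 8.52 and 8.72%, and those near position 26581083 held 1.35 and 1.30%. The other 11 transcripts, annotated to start elsewhere in the gene, held 46.1 and 41.2%. Of them, 3 have annotated starts 5 to 17 bases after the miR-126a hairpin and held 16 and 12.6% (TPM 6.88 and 5.89). Several of the 11 are short or intron-retaining forms, whose annotated ends need not be start sites. The shares come from the assignment of reads among overlapping transcripts, so the use of start sites was not measured. The 250 bases before the RefSeq starts with the largest and next largest share are shown, on the plus strand. Capitals mark AGGAAG or its reverse complement, a core of ETS factor sites.
Egfl7 start 2, chr2:26583615-26583864: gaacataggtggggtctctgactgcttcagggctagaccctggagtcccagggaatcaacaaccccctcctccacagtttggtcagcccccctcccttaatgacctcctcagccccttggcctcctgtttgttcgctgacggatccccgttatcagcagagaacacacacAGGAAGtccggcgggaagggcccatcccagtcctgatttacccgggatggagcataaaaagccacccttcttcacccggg
Egfl7 start 3, chr2:26586386-26586635: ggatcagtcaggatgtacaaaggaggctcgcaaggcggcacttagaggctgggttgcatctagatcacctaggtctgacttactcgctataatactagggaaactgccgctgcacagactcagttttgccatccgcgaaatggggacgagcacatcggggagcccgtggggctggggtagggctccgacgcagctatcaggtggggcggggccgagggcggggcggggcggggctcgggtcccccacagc

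The ETS letters occur 1 time before start 2, 0 times before start 3 and 3 times before start 1. Of 32851 RefSeq windows of the same length, 29.5% hold them on either strand. The promoter table had entries for 5 of the 10 members (Emcn, Egfl7, Prox1, Tek and Tie1), with 8 windows in all, and 4 of the 8 hold the ETS letters. The letters AGATAA, a core bound by Gata2 and related factors, were in 0 of the 8 windows and in 9.99% of all. The variant TGATAA was not searched, and its reverse complement TTATCA occurs in the window shown before start 2. The TATA box, searched as TATAAA, was in 1 of the 8 windows and in 12.4% of all. Both strands were searched. Pecam1, Cdh5, Plvap, Lyve1 and Angpt2 had no entry.

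Several members overlap other genes, and the sources used here do not give the strand setting of the counting, so reads of genes on opposite strands may not be separable. Angpt2 lies wholly inside Mcph1 on the opposite strand, and Mcph1 stood at a TPM of 3.65 and 3.34. Gtpbp3 overlaps the end of Plvap on the opposite strand by 1819 bases and stood at 6.21 and 7.09. Agpat2 overlaps Egfl7 by 64 bases on the opposite strand and stood at 93.9 and 103. Gm20532 overlaps Egfl7 on the same strand and stood at 0 and 0.18. Prox1os and Gm28172, opposite Prox1, stood at or below 0.18 in both pups, from at most 5.27 expected counts. Gm29682, opposite Cdh5, and Mir126b, opposite Egfl7, were not analysed here.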

How the data were processed

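Total RNA-seq of 2 whole newborn stomachs was analysed from the gene and transcript tables the authors deposited. Per the deposited notes and the labels, the assembly was mm10 and the annotation GENCODE M4. The sources used here do not give the aligner, the quantifier or the strand setting, and column names match those RSEM writes. The authors deposited expected counts, TPM with posterior means and credibility bounds, FPKM, and the percent of each gene's transcripts held by each isoform. The sources used here do not state the level of those bounds. Symbols and coordinates came from GENCODE M21 on the same assembly. All 45 member transcripts matched it, and 42 had the same length.

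Ratios of pup 2 over pup 1 were taken as differences of log2(TPM + 1). A gene counted as differing beyond quantification error when the bounds were apart, the fold was at least 1.5 and the mean expected count at least 100. This rule was checked on simulated counts. It is no test between conditions. Intervals on CPM ratios are exact binomial 95% intervals and, like the floor of 3 counts (0.0582 and 0.0600 CPM), cover counting error only. TMM (edgeR 4.0.16) and size factors (DESeq2 1.42.0, R 4.3.3) gave alternative scalings, on expected counts rounded to whole numbers. The median member ratio and member levels were recomputed under other pseudocounts, units and filters, and with either pup left out.

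The members and the 12 other lists were chosen with earlier results of these data known. Each list was described by its 3 highest genes by mean TPM and any gene past the 1.5-fold rule, and genes that overlap a member were named. Genes named outside it are said to be so. Transcripts were compared at coding segments present in some and absent from other protein-coding transcripts of a gene.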

Additional observations from a re-analysis of the deposited data

How the results depend on the processing

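The count of members beyond quantification error was 0 at 1.5-fold, at a fold of at least 2, without the filter on counts and with the median ratio of all genes set to 0. It was 2 with no minimum fold, and 1 (an alternative chosen after seeing the data) with no minimum fold and the median ratio set to 0, where Plvap was lost and Lyve1 kept. Members detected numbered 10 at a TPM of at least 0.1, 7 at a TPM of at least 5 and 9 by the lower bound. The median member level was 6.89 in FPKM against 8.62 in TPM, units that differ by a scale factor per library. Leaving out either pup gave 9 to 9 members detected and a median level of 7.99 to 9.26, each then from 1 library. With FPKM 9 of the 10 member levels moved by more than the spread between pups, and with posterior means 1 did. The Prox1 log2 ratio was 0.12 with a pseudocount of 1 and 0.35 with a pseudocount of 0.1, and no other member ratio moved by more than the SD of the ratios across the 10 members (0.156) under the pseudocounts and scalings tried. No paired analysis was possible because all samples belong to 1 group. The depth of the libraries limits Prox1 and Angpt2 most.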
